A study of Homo sapiens with 15 samples.

Results

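AP-1 is a family of transcription factors that bind DNA as dimers of basic leucine zipper proteins. The genes described here are 8 of the 23368 genes in the count table, taken by name: JUN, JUNB and JUND, which encode the JUN subunits; FOSL1 and FOSL2, which encode the FOS-related subunits FRA-1 and FRA-2; ATF3 and BATF3, which encode partners of JUN proteins; and MAFF, which encodes a small MAF protein without a transactivation domain. They were followed by RNA-seq in 15 libraries of 3 human breast cancer clones that carry a doxycycline-inducible FLAG-tagged RBM47, an RNA-binding protein. WT6 and WT10 cells express the wild type protein, and MUT3 cells express mRNA of the frameshift mutant RBM47-I281fs. The study detected no protein from this mutant by Western blotting in non-clonal cells given the same doses, and all RBM47 values below are mRNA. Each clone grew from a single sorted cell and was left untreated (0 ng/ml) or given doxycycline at 1, 2.5, 5 or 25 ng/ml. Each clone was sequenced once at each dose. MUT3 is the only clone with the mutant transgene, so a clone and its transgene cannot be told apart. The labels name MDA231 as the line of all 3 clones, while the methods of the study derive WT6 from the brain-metastatic derivative CN34-BrM2 and the other clones from MDA231-BrM2. The comparisons ask which of these genes moved with doxycycline in the clones with wild type RBM47 and not in the clone with the mutant transgene.

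JUN proteins can pair with themselves, with FOS proteins or with ATF proteins, and the choice of partner changes which DNA element is bound. JUN with a FOS partner prefers the TPA response element, whereas dimers that hold an ATF protein prefer the related cyclic AMP response element. Most of these genes are immediate early genes with short-lived mRNAs, induced by growth factors, cytokines and stress through MAP kinases. FOSL1 is known for its high level in mesenchymal breast cancer lines, where it is linked to invasion, and JUNB is often described as an antagonist of JUN.

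The family controls its own promoters, so the 250 bases before the annotated starts were searched on both strands for 3 of its elements and for the CArG box, to which serum response factor binds. RefSeq promoters (build GRCh38.p14) were found for 6 of the 8 genes, and FOSL1 and BATF3 had no entry. The windows below are shown because 4 of the 6 genes held an element of the kind bound by JUN and ATF dimers. Each is printed on the strand of its gene with 16 bases on either side of the match, and the capitals mark the match.
JUN: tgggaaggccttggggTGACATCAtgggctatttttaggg
ATF3: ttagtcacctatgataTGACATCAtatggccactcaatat
JUND: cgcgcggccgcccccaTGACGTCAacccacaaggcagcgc
MAFF: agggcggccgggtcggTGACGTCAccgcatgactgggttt
The JUN window lies at chr1:58784091-58784130 on the minus strand, with its match 67 to 60 bases upstream of the start. The ATF3 window lies at chr1:212565268-212565307 on the plus strand and belongs to the more upstream of the starts listed for the gene, with its match 123 to 116 bases upstream. The JUND window lies at chr19:18281799-18281838 on the minus strand, with its match 200 to 193 bases upstream. The MAFF window lies at chr22:38201924-38201963 on the plus strand and likewise belongs to the more upstream of the starts listed, with its match 54 to 47 bases upstream. JUN and ATF3 thus shared TGACATCA, which 2.37% of all 35116 RefSeq promoter entries held, and JUND and MAFF shared TGACGTCA, which 1.65% held. The other letters searched, TGACTCA (4.20% of entries) and the CArG box (1.16%), were not in these windows of the 6 genes, and none of the 4 elements was in those of JUNB and FOSL2. In the data below, JUN and ATF3 moved in opposite directions in WT10, and JUND and MAFF both rose in WT6. A match is a stretch of letters and not a measured binding site.

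In the annotation of the build used for mapping (hg19), JUN lies at chr1:59242517-59249720, JUNB at chr19:12902300-12904129, JUND at chr19:18390504-18392432 and FOSL1 at chr11:65659520-65668044. FOSL2 lies at chr2:28615315-28640184, ATF3 at chr1:212738676-212794119, BATF3 at chr1:212859759-212873182 and MAFF at chr22:38596774-38612514. The transcripts used for length run from 836 nt for BATF3 to 6713 nt for FOSL2, and the transcripts of the JUN genes have 1 exon each. JUNB (HOOK2), FOSL2 (FOSL2-AS1), ATF3 (RN7SL512P), BATF3 (RNU6-423P) and MAFF (PLA2G6) overlap a gene on the opposite strand, and reads of such a pair can be told apart only where the libraries mark the strand. HTSeq counts by strand at its default settings, while whether these libraries mark it is not given in the sources used here. FOSL2 also overlaps another annotated gene on its own strand, where the strand of a read does not separate the pair.

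Libraries held 14955172 to 44771871 reads on genes, with a median of 18152381, and the 8 genes had between 56 and 27531 reads each per library. Values are normalized counts, that is, reads scaled to a common library size. RBM47 itself was at 258, 3137, 8094, 3966 and 10425 in WT6 from 0 to 25 ng/ml, at 168, 827, 2822, 8134 and 19877 in WT10, and at 73.8, 92.1, 336, 949 and 22084 in MUT3. RBM47 thus followed the dose in WT10 and MUT3, whereas in WT6 it was lower at 5 than at 2.5 ng/ml. The line markers VIM, CD44, AXL, CAV1, KRT18 and KRT8 were at 4191 or above in every library and CDH1 and ESR1 at 19.9 or below, while PGR, ERBB3 and EPCAM, also expected to be low, reached 23.8, 88.7 and 456. Of 7 markers of blood, endothelial, liver and glial cells, CD3E had no read in any library, and the list summed to 119 to 148 in WT6, 37.0 to 90.9 in WT10 and 47.5 to 104 in MUT3. CD14 (15.5 to 73.5) and GFAP (14.1 to 73.4) had reads in every library, and ALB reached 53.0. PTPRC, PECAM1 and CDH5 reached 6.18, 9.19 and 1.08. In 2 of the WT6 libraries, at 5 and 25 ng/ml, changes from the untreated library followed transcript length. Genes were split by length into 5 classes of equal size, and the shortest class had a median log2 change of 0.60 at 5 and 0.58 at 25 ng/ml there, against -0.41 and -0.46 in the longest class. In WT10 at 25 ng/ml these medians were 0.06 and -0.08. For WT6 the change of genes of like length, or the slope with length and GC trends removed, is therefore given beside a result. In WT10 the class of genes richest in GC, which holds JUNB, JUND, FOSL1, BATF3 and MAFF, had median log2 changes of -0.11, -0.21, -0.26 and -0.08 from 1 to 25 ng/ml.

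Before doxycycline, FOSL1 was by far the most abundant of the 8 per length of transcript. It was at 4409 normalized counts per kb in WT6, 8543 in WT10 and 6922 in MUT3, above JUN at 880, 1927 and 1891 in the same order. ATF3 was the lowest of the 8 in all 3 untreated libraries, at 47.5, 57.4 and 36.1 per kb. JUND followed JUN in WT10 and MUT3 with 1422 and 1553 per kb, ahead of JUNB with 985 and 683. In WT6 JUNB at 662 and JUND at 656 did not differ beyond counting error, with a ratio of 1.01 (95% interval, 0.929 to 1.10). FOSL2 ranked 5 of the 8 in WT6 with 489.8 per kb and 7 in the other clones with 258 and 180.3. MAFF at 472 and BATF3 at 461 did not differ beyond counting error in MUT3, with a ratio of 1.02 (0.899 to 1.17). All other neighbours in the order did, the closest being BATF3 at 300.2 and FOSL2 at 258 in WT10 (1.17, 1.01 to 1.34). These intervals are exact binomial limits on the reads and cover counting error only, since no untreated library was repeated. In such bulk RNA, fewer cells with a transcript and less transcript per cell cannot be told apart.

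Over the doses, 7 of the 8 genes were called as moving with doxycycline in WT6, 4 in WT10 and 0 in MUT3. The test was limma, fitting in each clone a straight line on log2(dose + 1), and a gene was called at a Benjamini-Hochberg adjusted p under 0.05 over all 12644 genes tested. All 8 passed the filter on low values. Of all genes tested, 57.5% were called in WT6, 20.0% in WT10 and 0% in MUT3, where 295 genes had an unadjusted p under 0.05 and none of the 8 was among them. These shares depended on the estimate of spread that the clones share in the fit. With each clone fitted alone, 3945 of the 12644 genes were called in WT6, 3587 in WT10 and 176 in MUT3. In the fit over all clones, RBM47 itself was not called in MUT3 (limma adjusted p = 0.0517). Its normalized count there was 73.8 at 0 and 22084 at 25 ng/ml. A gene without a call in MUT3 is therefore not shown to have stayed level. In WT6, JUNB, JUND, ATF3, BATF3 and MAFF rose and FOSL1 and FOSL2 fell. In WT10, ATF3 and MAFF rose and JUN and FOSL1 fell. FOSL1, ATF3 and MAFF were thus called with the same sign in both wild type clones. The median slope of the 8 was 0.16 in WT6, -0.04 in WT10 and 0.02 in MUT3, beside 0.01, 0.00 and 0.00 over all genes. Without the WT6 library at 25 ng/ml, 3 of the 7 calls in WT6 were made, where 4619 of all 12602 genes were called. Without the WT10 library at 25 ng/ml none of the 4 calls in WT10 was made, where 6 of all 12633 genes were called. With a log2 RBM47 count in place of the dose, none was made in any clone, where 2 genes in all passed in WT6 and 89 in WT10. Each p rests on the scatter of 1 library per dose around a straight line, and nothing in the labels says that the doses were separate cultures.

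**Figure D1:**
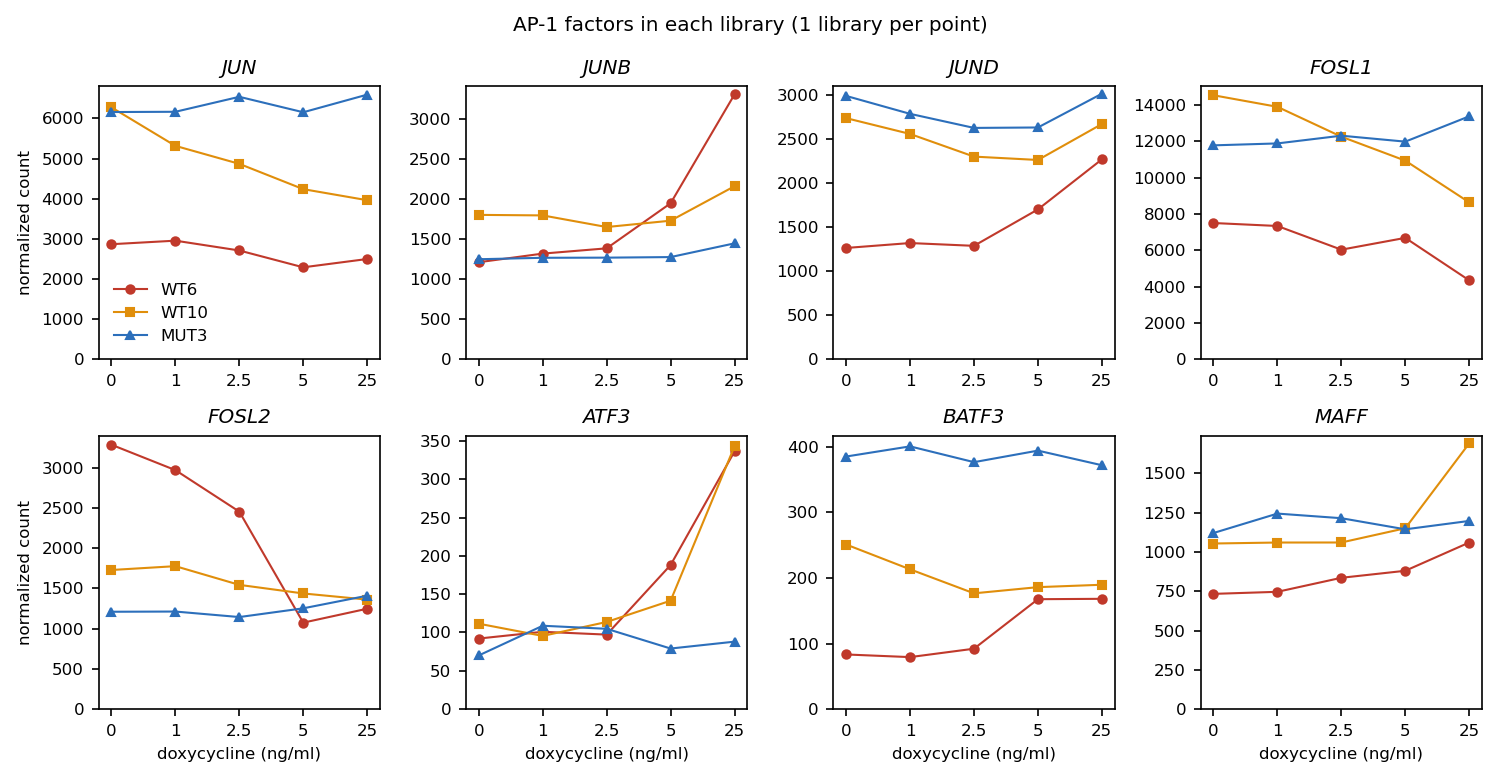
Normalized count (vertical axis, from 0) of each of the 8 AP-1 factors at 0, 1, 2.5, 5 and 25 ng/ml doxycycline (horizontal axis, evenly spaced) in WT6 (circles), WT10 (squares) and MUT3 (triangles), with 1 library per point. JUN in WT10 lies lower at each higher dose, from 6276 to 3962, and ATF3 stands at 336 and 343 in the wild type clones and at 88.0 in MUT3 at 25 ng/ml.

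JUN, the founding member of the family and the main transactivating JUN protein, decreased with dose in WT10. Its normalized counts there were 6276, 5316, 4868, 4238 and 3962 from 0 to 25 ng/ml, lower at each step. In MUT3 they were 6159, 6165, 6538, 6153 and 6592, and the WT10 values at 1 ng/ml and above lie below all 5 of these. The ratio to the untreated library in WT10 was 0.847 (95% interval of the counts, 0.816 to 0.879) at 1 ng/ml and 0.631 (0.606 to 0.658) at 25 ng/ml, and in MUT3 it was 1.07 (1.03 to 1.11) at 25 ng/ml. The WT10 slope was -0.14 ± 0.03 (SE; log2 per unit of log2(dose + 1)), with a limma adjusted p of 0.00285. In WT6, JUN was at 2866, 2954, 2709, 2290.3 and 2498, with the lower values at 5 and 25 ng/ml. The slope there was -0.06 ± 0.03 and was not called (adjusted p = 0.0805), although it passed after length and GC trends were removed (-0.05, adjusted p = 0.00923) or with the rank of the dose (-0.08, adjusted p = 0.0249).

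JUNB, which pairs with the same partners as JUN but is a weaker activator at many promoters, rose in WT6. Its normalized counts were 1212, 1319.7, 1385, 1948 and 3308, a value at 25 ng/ml that was 2.73 (2.54 to 2.93) times that of the untreated library. The values increased at every step, and the steps at 5 and 25 ng/ml were the widest. The slope was 0.33 ± 0.03 (adjusted p = 5.89e-06), and 0.21 with length and GC trends removed. WT10 held 1803, 1797, 1652, 1731 and 2161, and MUT3 1249, 1267, 1269, 1276 and 1448. In both clones the library at 25 ng/ml was the highest, at 1.20 (1.12 to 1.28) and 1.16 (1.07 to 1.26) of the untreated one, and neither slope was called (0.06 and 0.04). The small excess at 25 ng/ml was therefore present in the mutant clone too. Beside genes of like GC content, JUNB at 25 ng/ml was 0.34 higher in WT10 and 0.17 higher in MUT3 on the log2 scale. With length and GC trends removed the WT10 slope was called (0.06, limma adjusted p = 0.0132).

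JUND, the JUN protein that is least dependent on stimulation, also rose in WT6, from 1266, 1322 and 1289.9 at the lower doses to 1704 at 5 and 2273 at 25 ng/ml. The slope was 0.19 ± 0.04 (adjusted p = 0.000377), and 0.06 with length and GC trends removed (adjusted p = 0.00561). Without the WT6 library at 25 ng/ml it was 0.14 and was not called (adjusted p = 0.0969). In the other clones JUND dipped and returned. WT10 held 2742, 2563, 2305, 2267 and 2675, and MUT3 2995, 2791, 2631, 2636 and 3020.2. The lowest ratio was 0.826 (0.789 to 0.866) at 5 ng/ml in WT10 and 0.879 (0.831 to 0.929) at 2.5 ng/ml in MUT3, and at 25 ng/ml the ratios were 0.976 and 1.01. In WT10 the median of genes with like GC content changed by -0.21 and -0.26 at 2.5 and 5 ng/ml, against -0.25 and -0.27 for JUND. In MUT3 these medians were 0.01 and -0.09, against -0.19 and -0.18. The slopes were -0.01 and 0.01.

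FOSL1, which encodes FRA-1, fell in both wild type clones, with slopes of the same size. WT10 held 14541, 13903, 12259, 10939.7 and 8642, and WT6 held 7504, 7340.5, 6035, 6686 and 4346. In WT10 each dose was below the last, and in WT6 the 5 ng/ml library was above that at 2.5. Genes of like GC content in WT10 had median log2 changes of -0.11, -0.21, -0.26 and -0.08 from 1 to 25 ng/ml. The changes of FOSL1 there were -0.06, -0.25, -0.41 and -0.75. MUT3 held 11781, 11888, 12314, 11986 and 13381, where the highest value came at the highest dose. At 25 ng/ml the ratio to the untreated library was 0.594 (0.578 to 0.611) in WT10, 0.579 (0.556 to 0.603) in WT6 and 1.14 (1.11 to 1.17) in MUT3. The slopes were -0.17 ± 0.03 in both wild type clones (adjusted p = 0.000829 in WT10 and 0.000143 in WT6) and 0.04 ± 0.03 in MUT3. In WT6, FOSL1 went against its length. Genes of the same length class were 0.58 higher (median log2 change) at 25 ng/ml, and FOSL1 was 1.37 below them on the log2 scale, so that its slope was -0.28 with length and GC trends removed. Without the 25 ng/ml library of the clone the slope was -0.09 in WT6 (adjusted p = 0.104) and -0.16 in WT10 (adjusted p = 0.182).

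FOSL2, which encodes FRA-2, fell in WT6, where it started higher than in the other clones. Its normalized counts were 3288, 2972, 2455, 1075 and 1248, lower than the untreated library at each dose and with a drop between 2.5 and 5 ng/ml. The ratio was 0.327 (0.302 to 0.354) at 5 ng/ml and 0.380 (0.353 to 0.408) at 25 ng/ml, and the slope was -0.36 ± 0.06 (adjusted p = 0.000346). Genes of the same length class had median log2 changes of -0.41 and -0.46 in these libraries. FOSL2 is the longest transcript of the 8, and it was 1.20 and 0.94 lower than those medians on the log2 scale. The ratio was already below 1 in the libraries without the length trend, at 0.904 (0.859 to 0.952) for 1 ng/ml and 0.747 (0.709 to 0.786) for 2.5 ng/ml, and FOSL2 was the 1 gene of the 8 still called in WT6 without the libraries at 5 and 25 ng/ml (slope -0.23, adjusted p = 0.0428). WT10 held 1729.85, 1777, 1545, 1438 and 1362, and its slope of -0.09 was not called (adjusted p = 0.376). It passed when WT10 was fitted alone (adjusted p = 0.0232) or when the WT6 library at 5 ng/ml was left out (0.0110), both of which leave the WT6 library at 5 ng/ml out of the fit. MUT3 held 1211, 1213, 1145, 1253 and 1410.05.

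ATF3, a stress-induced factor that can repress or activate depending on its partner, had the steepest slope of the 8 in both wild type clones. WT6 held 92.1, 101, 97.2, 188 and 336, and WT10 held 111, 95.5, 114, 141 and 343. The counts stayed near the untreated level up to 2.5 ng/ml and were highest at 25 ng/ml, at 3.65 (2.85 to 4.72) times the untreated library in WT6 and 3.08 (2.46 to 3.88) times in WT10. MUT3 held 70.0, 109, 105, 79.0 and 88.0, where the untreated library, with 56 reads, was the lowest and no order by dose was seen. The slopes were 0.45 ± 0.07 in WT6 (adjusted p = 0.000102), 0.41 ± 0.07 in WT10 (adjusted p = 0.000931) and 0.02 ± 0.08 in MUT3. Genes of the same length class had a median log2 change of 0.20 in WT6 and 0.02 in WT10 at 25 ng/ml, against 1.86 and 1.61 for ATF3. Neither call was made without the 25 ng/ml library of the clone. The slope was then 0.37 ± 0.15 in WT6 (adjusted p = 0.0617) and 0.15 ± 0.13 in WT10 (adjusted p = 0.622). At 5 ng/ml ATF3 was at 2.04 (1.55 to 2.71) times the untreated library in WT6 and 1.27 (1.02 to 1.60) times in WT10.

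BATF3, known for its role in dendritic cells and lymphomas, took different courses in the 3 clones. WT6 held 83.3, 79.3, 92.1, 168 and 168, with the higher values in the libraries that followed transcript length. WT10 held 251, 213, 177, 186 and 189.6, and MUT3 held 385, 401, 377, 394 and 372. The WT6 slope was 0.26 ± 0.06 (adjusted p = 0.00171) and was lost with length and GC trends removed (0.09, adjusted p = 0.109), and genes of its length class had a median log2 change of 0.60 and 0.58 at 5 and 25 ng/ml, against 1.00 for BATF3 at each. In WT10 the ratio to the untreated library was 0.703 (0.575 to 0.859) at 2.5 ng/ml and 0.756 (0.619 to 0.921) at 25 ng/ml, and the slope of -0.08 was not called (adjusted p = 0.271).

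MAFF, which pairs with FOS proteins and with the NRF and BACH factors, rose in both wild type clones. WT6 held 733, 746, 836, 880.1 and 1060.06, higher at each dose. WT10 held 1054, 1059.9, 1060.2, 1151 and 1691, nearly level up to 2.5 ng/ml. MUT3 held 1120.5, 1244, 1215, 1144 and 1197, within 1.11 times of one another. The ratio at 25 ng/ml was 1.45 (1.31 to 1.60) in WT6, 1.60 (1.48 to 1.74) in WT10 and 1.07 (0.978 to 1.17) in MUT3. The slopes were 0.12 ± 0.03 (adjusted p = 0.00358) in WT6 and 0.15 ± 0.03 (adjusted p = 0.00216) in WT10. With length and GC trends removed they were 0.06 and 0.16. Without the 25 ng/ml library of the clone they were 0.11 in WT6 (adjusted p = 0.135) and 0.04 in WT10 (adjusted p = 0.662).

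**Figure D2:**
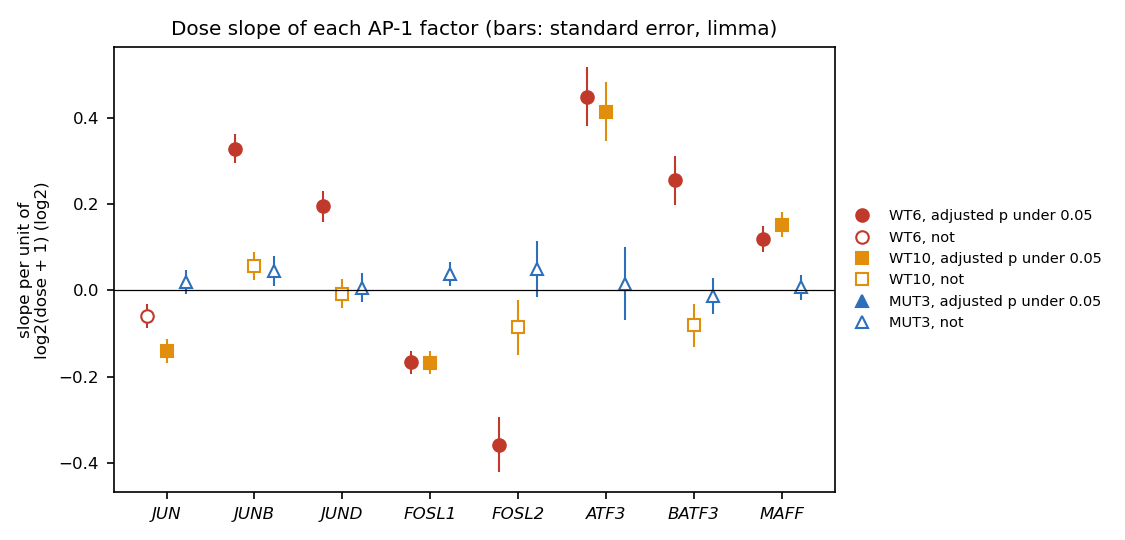
Slope of each AP-1 factor on log2(dose + 1) (vertical axis, log2 units) in WT6 (circles), WT10 (squares) and MUT3 (triangles); bars are the limma standard errors and filled symbols mark an adjusted p under 0.05. The WT6 and WT10 symbols lie together for FOSL1, ATF3 and MAFF and apart for JUNB, JUND, FOSL2 and BATF3, and none of the MUT3 symbols is filled.

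Whether the clones with the wild type and the mutant transgene differed was tested directly between WT10 and MUT3, which the study derives from the same line. The slope differed for 4 of the 8 genes, the same 4 that were called in WT10, where 5.62% of all genes tested did. The difference (WT10 minus MUT3) was -0.21 ± 0.04 for FOSL1 (adjusted p = 0.0105), -0.16 ± 0.04 for JUN (0.0304), 0.40 ± 0.11 for ATF3 (0.0451) and 0.14 ± 0.04 for MAFF (0.0498). For JUNB and JUND it was 0.01 and -0.01. At 25 ng/ml, where RBM47 was at 19877 in WT10 and 22084 in MUT3, JUN was at 3962 against 6592 and FOSL1 at 8642 against 13381, while ATF3 was at 343 against 88.0 and MAFF at 1691 against 1197. All 4 calls were lost without the WT10 library at 25 ng/ml and also without the untreated or the 25 ng/ml library of MUT3. Of all genes, 0 of 12633, 124 of 12638 and 2 of 12642 were called in these fits, in the same order. The 9 fits that changed the count by over 1.5 times made 0 to 2 calls, beside 0 to 569 over all genes. They left out WT6 at 1 ng/ml, WT10 at 1, 2.5 or 25 ng/ml, or any 1 MUT3 library. Without the WT10 library at 25 ng/ml the difference was -0.23 for JUN, -0.20 for FOSL1, 0.13 for ATF3 and 0.04 for MAFF. The 4 differences kept their signs in all 15 such fits, with adjusted p up to 0.435 for FOSL1, 0.525 for JUN, 0.737 for ATF3 and 0.780 for MAFF.

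Between the wild type clones, the slopes of 3 of the 8 genes differed, where 14.4% of all genes did. JUNB (difference WT6 minus WT10, 0.27 ± 0.05, adjusted p = 0.00740), JUND (0.20 ± 0.05, 0.0223) and BATF3 (0.34 ± 0.08, 0.0186) had the higher slope in WT6. FOSL1, ATF3 and MAFF had differences of 0.00 ± 0.04, 0.04 ± 0.10 and -0.03 ± 0.04, and JUN and FOSL2 of 0.08 ± 0.04 and -0.27 ± 0.09 (adjusted p = 0.152 and 0.0547). Without the WT6 libraries at 5 and 25 ng/ml, a choice made after the data were seen, no difference was called, where 4 of all 12597 genes were. None was called either without the WT6 library at 25 ng/ml (62 of all 12602 genes) or the untreated WT10 library (59 of 12645). Without the WT6 library at 5 ng/ml 5 were called, where 3709 of all 12642 genes were. With length and GC trends removed, 6 of the 8 were called, where 1847 of all 12644 genes were. Among them were FOSL1, whose difference was then -0.11 (adjusted p = 0.0461), and MAFF (-0.10, adjusted p = 0.0342), whereas BATF3 was not called (0.17, adjusted p = 0.0532).

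**Figure D3:**
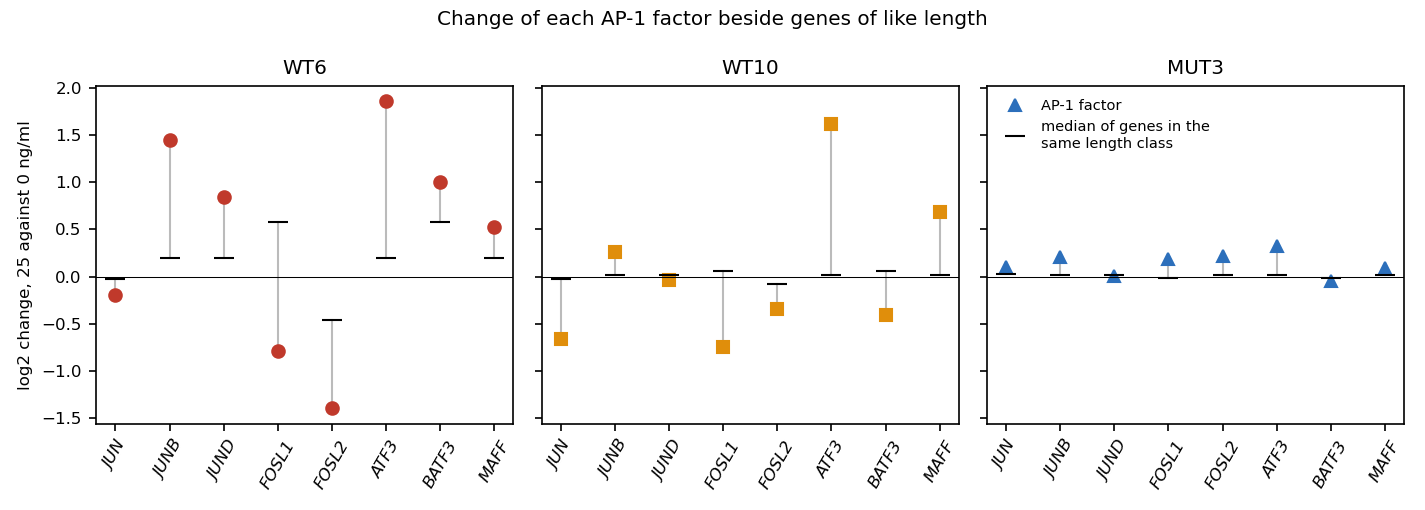
Log2 change from 0 to 25 ng/ml (vertical axis) of each AP-1 factor (symbols) and the median of all tested genes in the same class of transcript length (black dashes) in WT6, WT10 and MUT3, with grey lines joining the pair. In WT6 FOSL1 lies 1.37 below its dash and ATF3 1.66 above it; the dashes spread from -0.46 to 0.58 there and from -0.08 to 0.06 in WT10.

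The clones reached like RBM47 levels at unlike doses, so the 8 genes can also be set side by side there. RBM47 was at 8094 in WT6 at 2.5 ng/ml and at 8134 in WT10 at 5 ng/ml. The ratios to the untreated library were then 0.804 in WT6 and 0.752 in WT10 for FOSL1, 0.945 and 0.675 for JUN, and 0.747 and 0.831 for FOSL2. JUNB was at 1.14 in WT6 and 0.960 in WT10, JUND at 1.02 and 0.826, and BATF3 at 1.11 and 0.741. ATF3 was at 1.06 (0.790 to 1.42) and 1.27 (1.02 to 1.60), and MAFF at 1.14 and 1.09. By these ratios FOSL1 and MAFF were nearest to each other between the clones and JUN and BATF3 farthest apart, with doses that differed and 1 library on each side, so no test was made. The class richest in GC had median log2 changes of -0.07 in this WT6 library and -0.26 in this WT10 library. Beyond that class, the changes in WT6 and WT10 were 0.26 and 0.20 for JUNB, 0.09 and -0.02 for JUND, and 0.21 and -0.17 for BATF3. They were -0.25 and -0.15 for FOSL1 and 0.25 and 0.39 for MAFF. WT10 at 1 ng/ml (RBM47 at 827) and MUT3 at 5 ng/ml (949) form a like pair in RBM47 mRNA. JUN was at 0.847 (0.816 to 0.879) of its untreated level in this WT10 library and at 0.999 (0.963 to 1.04) in the MUT3 library, while FOSL1 was at 0.956 (0.934 to 0.979) and 1.02 (0.991 to 1.04). Genes in the GC class of FOSL1 had median log2 changes of -0.11 and -0.09 in these libraries, against -0.06 and 0.02 for FOSL1. Those in the GC class of JUN had -0.05 and -0.04, against -0.24 and -0.001 for JUN.

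The makeup of the JUN mRNA pool shifted away from JUN in both wild type clones. Shares were taken per length of transcript, as a part of the summed normalized count per kb of JUN, JUNB and JUND. In WT6 the share of JUN was 40.0% untreated and 20.4% at 25 ng/ml, while that of JUNB was 30.1% and 48.2%. In WT10 JUN made up 44.5% and 32.1% and JUNB 22.7% and 31.2%. In MUT3 JUN stayed between 45.8% and 49.4% and JUNB between 16.5% and 18.1%. The paths differed, since the pool as a whole was at 2198 per kb untreated and 3753 at 25 ng/ml in WT6, with more JUNB and JUND, and at 4334 and 3785 in WT10, with less JUN. Of the FOS pool (FOS, FOSB, FOSL1 and FOSL2), FOSL1 made up 87.5% to 97.3% in all 15 libraries. The pool followed it, from 4980 to 2917 per kb in WT6, from 8859 to 5335 in WT10, and from 7141 to 8118 in MUT3. FOSL2 made up 9.83% of the pool in untreated WT6 cells, 3.81% with 5 ng/ml and 6.37% with 25 ng/ml. In WT10 its share was 2.91% untreated and 3.80% with 25 ng/ml. The WT6 shares at 5 and 25 ng/ml include the length trend, whose part was not tested. In these libraries the class of FOSL1 had median log2 changes of 0.60 and 0.58 and that of FOSL2 of -0.41 and -0.46. The class of JUN had -0.05 and -0.03, and the class of JUNB and JUND had 0.16 and 0.20. These shares are descriptions of single libraries, with no test.

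**Figure D4:**
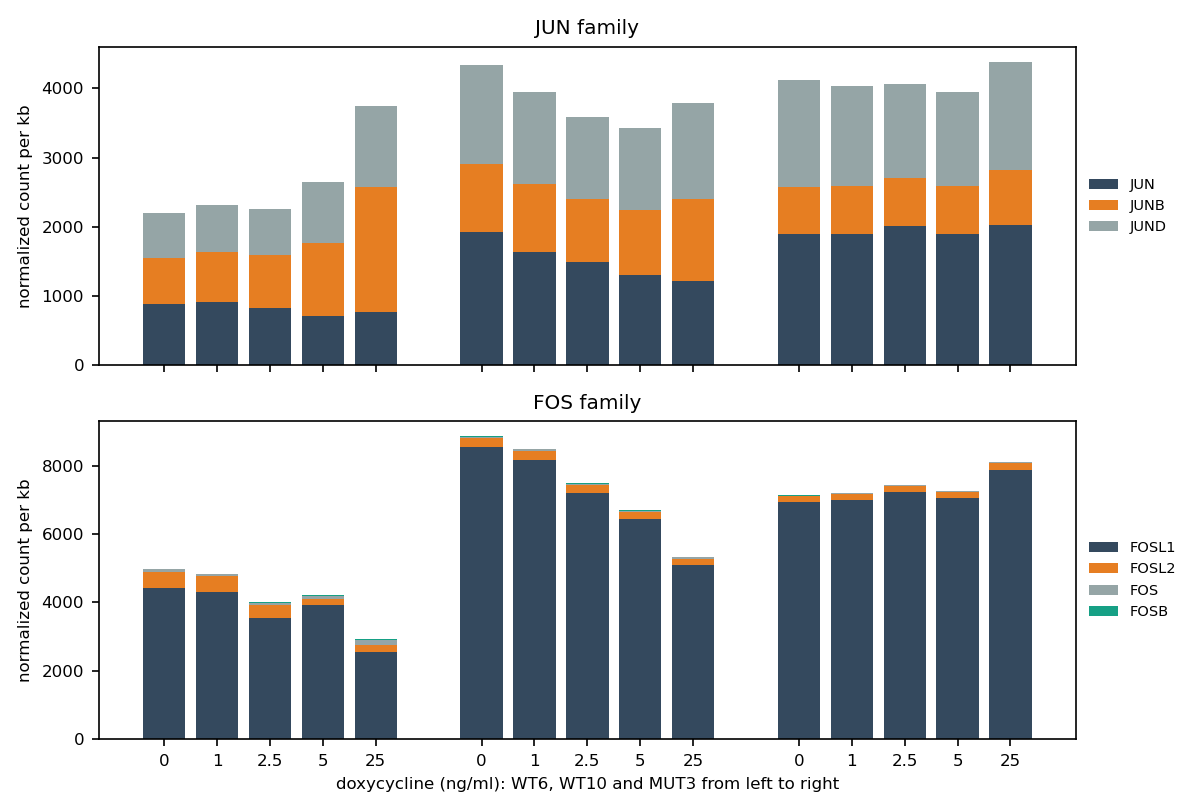
Summed normalized count per kb of transcript (vertical axis, from 0) of the JUN family (upper panel) and the FOS family (lower panel) by library, with the doses 0 to 25 ng/ml from left to right within WT6, WT10 and MUT3; colours give the genes and each bar is 1 library. At 25 ng/ml JUNB is the largest part of the JUN bar in WT6, at 48.2%, and FOSL1 is nearly the whole FOS bar in every library.

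Of 17 further dimer partners (FOS, FOSB and the ATF, BATF, MAF, NRF and BACH genes), 12 passed the filter on low values. In WT6, 2 rose and 4 fell, and in WT10, 2 rose and none fell, with no gene called in both and none called in MUT3, beside 57.5% and 20.0% of all genes called in WT6 and WT10. The median slope was 0.01 in WT6 and -0.01 in WT10. The risers in WT6 were FOS itself, the classical partner of JUN (138, 148, 143, 202 and 315, slope 0.28 ± 0.04, adjusted p = 7.81e-05), and FOSB (61.4, 57.6, 62.2, 69.5 and 106, slope 0.19 ± 0.06, adjusted p = 0.00989), named after their values were seen. With length and GC trends removed the slopes were 0.21 and 0.21, and without the WT6 library at 25 ng/ml they were 0.19 (adjusted p = 0.0735) and 0.07 (0.619). FOS was at 74.6 to 77.7 in WT10 and at 42.5 to 57.6 in MUT3 from the first to the last dose, with slopes that were not called. FOS made up 1.32% of the FOS pool in untreated WT6 cells and 5.13% at 25 ng/ml.

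Of 14 kinases and factors that act upstream of the AP-1 genes, 13 were tested; 1 rose and 5 fell in WT6, 1 rose and 2 fell in WT10, and none was called in MUT3 (all genes, 57.5%, 20.0% and 0%). The median slope was -0.08 in WT6 and -0.04 in WT10. SRF, the serum response factor, and ELK1, its MAP kinase target partner, fell in both wild type clones. SRF was at 2545, 2513, 2119, 1723 and 1333 in WT6, at 3876, 3700, 3258, 2968 and 2295 in WT10 and between 3341 and 3504 in MUT3. ELK1 was at 1557, 1499.8, 1246, 939 and 741 in WT6, at 1441, 1320.3, 1204, 1051 and 918 in WT10 and between 1305 and 1453 in MUT3. In both genes and both wild type clones each dose lay below the last. The slopes were -0.22 and -0.17 for SRF (adjusted p = 1.09e-05 in WT6 and 0.000289 in WT10) and -0.25 and -0.14 for ELK1 (1.15e-05 and 0.00248). In WT6 they were -0.18 for SRF and -0.26 for ELK1 with length and GC trends removed. Without the WT10 library at 25 ng/ml neither WT10 slope was called (-0.15, adjusted p = 0.135 for SRF, and -0.17, adjusted p = 0.151 for ELK1).

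Of 9 genes for turnover of AP-1 mRNA or protein, all of which were tested, 2 rose and 4 fell in WT6, 2 fell in WT10, and none was called in MUT3 (all genes, 57.5%, 20.0% and 0%). The median slope was -0.01 in both wild type clones. KHSRP, which promotes the decay of mRNAs with AU-rich elements, was the gene of this list that fell in both. It was at 5438, 5279.7, 4687, 3461 and 2721 in WT6, at 10893, 10136, 9412, 8457 and 6703 in WT10 and between 9556 and 10463 in MUT3, with slopes of -0.23 (adjusted p = 9.63e-06) and -0.15 (adjusted p = 0.00127). The WT6 slope was -0.19 with length and GC trends removed, and the WT10 slope was -0.14 (adjusted p = 0.214) without the library at 25 ng/ml.

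Known AP-1 target genes split in direction. Of 15 listed, 11 were tested; 4 rose and 5 fell in WT6, 3 rose and 2 fell in WT10, and none was called in MUT3 (all genes, 57.5%, 20.0% and 0%). The median slope was -0.01 in WT6 and 0.01 in WT10. Those that rose in both wild type clones were IL8 (interleukin 8), IL6 and MMP1 (interstitial collagenase). The study also counts IL8 mRNA among the mRNAs most strongly bound by RBM47, and it reports more secreted IL8 protein in WT6 with doxycycline. IL8 was at 142, 168, 267, 534 and 1354 in WT6 and at 266, 389, 655, 1706 and 4198 in WT10, higher at every dose, and between 294 and 420.1 in MUT3 (slopes of 0.75 and 0.89, adjusted p = 3.14e-06 and 1.82e-06 in WT6 and WT10). IL6 was at 28.5, 29.9, 34.1, 47.7 and 112 in WT6 and at 20.6, 14.5, 22.9, 29.8 and 89.1 in WT10, highest at 25 ng/ml as ATF3 was, and between 16.3 and 35.6 in MUT3 (slopes of 0.47 and 0.55, adjusted p = 0.000215 and 0.000801). MMP1 was at 716, 931, 1413, 1469 and 1206 in WT6, at 4092, 4618, 5277, 6377 and 12925 in WT10 and between 28105 and 41122 in MUT3, which was above both wild type clones in every library (slopes of 0.15 and 0.36, adjusted p = 0.0325 and 0.000454). HMGA1, a chromatin protein, fell in both, from 23856 untreated to 17964 at 25 ng/ml in WT6 and from 66036 to 43914 in WT10 (slopes of -0.08 and -0.13, adjusted p = 0.00650 and 0.00224), and lay between 74264 and 82013 in MUT3. With length and GC trends removed the WT6 slopes were 0.72 for IL8, 0.34 for IL6 and -0.19 for HMGA1, and the MMP1 call was lost (0.08, adjusted p = 0.213). Without the 25 ng/ml library of the clone, IL8 was called in both clones, and IL6 (adjusted p = 0.201 in WT6 and 0.551 in WT10) and HMGA1 (0.290 and 0.134) in neither. MMP1 was then called in WT6 (slope 0.43) and not in WT10 (0.24, adjusted p = 0.241).

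Levels fitted without doxycycline differed between clones for 7 of the 8 genes in 1 contrast and for 4 in the other. Between WT10 and MUT3, 4 of the 8 genes differed (28.2% of all genes did): JUNB by 0.46 ± 0.12 (adjusted p = 0.0109) and FOSL1 by 0.37 ± 0.10 (0.0123) were higher in WT10 on the log2 scale, and BATF3 by -0.79 ± 0.16 (0.00203) and MAFF by -0.29 ± 0.11 (0.0494) were lower. These levels are the start of the fitted lines. The untreated libraries held JUNB at 1803 in WT10 and 1249 in MUT3, FOSL1 at 14541 and 11781, and BATF3 at 251 and 385. MAFF was at 1054 and 1120.5 there, or 444 (95% interval of the counts, 416 to 473) and 472 (442 to 504) per kb, and these intervals overlap. The count of genes called was 2 without the untreated MUT3 library, where 2107 of all 12638 genes were called. Over the 15 fits that left out 1 library, BATF3 was called in 15, JUNB and FOSL1 in 14 each and MAFF in 4. Between WT6 and the mean of the other clones, 7 of the 8 differed (64.3% of all genes did). FOSL2 was higher in WT6, by 1.21 ± 0.20 (adjusted p = 6.29e-05). BATF3 (-1.93), JUND (-1.19), JUN (-1.07), FOSL1 (-0.74), MAFF (-0.57) and JUNB (-0.42) were lower there, with adjusted p from 4.23e-08 for JUN to 0.00309 for JUNB. ATF3, at -0.14 ± 0.25 (adjusted p = 0.634), was not called. Line, clone and transgene cannot be told apart in these levels.

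Among themselves, the 8 genes fell into opposed courses once each clone was centred on its own mean. Over the 15 libraries, Pearson's r of log2(normalized count + 1) was 0.945 for ATF3 with MAFF, 0.943 for JUNB with JUND, 0.724 for JUN with FOSL1 and -0.879 for FOSL1 with MAFF. The genes outside the 8 with the highest r were IMPA2 for ATF3 (0.977), ALDH2 for MAFF (0.989), NECAP2 for JUNB (0.983) and ZFPL1 for JUND (0.980). They were PPM1G for FOSL1 (0.983), NOC2L for JUN (0.963), HYOU1 for FOSL2 (0.993) and RTEL1 for BATF3 (0.983). These are the highest among the 12644 genes tested in the same 15 libraries, which share their doses and, in WT6, the length trend, and they are given as a description with no test.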

How the data were processed

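The authors sequenced polyA-selected RNA (75 bp paired-end reads), mapped it to hg19 with STAR, counted reads per gene with HTSeq 0.5.4 at default settings and scaled the counts with DESeq. The annotation, the strand of the libraries and the length of treatment are not given in the sources used here. The deposited table holds a normalized signal, each gene's reads scaled by the library's size factor, and 100% of the values were whole multiples of 1 read within 0.001. HTSeq's 5 tallies were left out; reads on no feature were 56.5% to 59.6% of each library. Per the file headers each column names 1 clone and dose, and groups follow the sample labels.

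Genes with a mean of at least 10 in each clone were tested with limma 3.58.1 (R 4.3.3) on log2(value + 1), with vooma weights and 1 fit over all 15 libraries (6 coefficients, 9 residual degrees of freedom); this scale understates the changes of low genes. The code was tested on simulated data. Intervals of ratios are exact binomial 95% limits on the reads and cover counting error only; 3 reads, the floor, equal 1.19 to 4.09 normalized counts. Lengths come from GENCODE 44 on hg19 (91.9% of genes). Python 3.11.15 drew the figures. Alternatives were edgeR 4.0.16 and DESeq2 1.42.0 on the recovered reads, TMM scaling, other pseudocounts, filters, weights and dose scales, RBM47 in place of dose, length and GC correction and left-out libraries. The members and lists were chosen with earlier results of these data known. All 8 members are named, with list genes called in both wild type clones and the genes most like each member. A planned cell type marker is not reported here.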

Additional observations from a re-analysis of the deposited data

Results flagged for a closer look

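The slopes of 4 genes differed between WT10 and MUT3 in the limma contrast: JUN (-0.16), FOSL1 (-0.21), ATF3 (0.40) and MAFF (0.14). The slopes of 3 genes differed between WT6 and WT10: JUNB (0.27), JUND (0.20) and BATF3 (0.34). Values are WT10 minus MUT3 and WT6 minus WT10, in log2 units per unit of log2(dose + 1). Each clone has 1 library per dose, so a difference between clones was tested only as a difference between their dose trends.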

How the results depend on the processing

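No paired analysis was made. Each clone and dose has 1 library, and pairing the clones by their shared doses was not tested. Of 1576 slopes, levels and differences of the 8 genes recomputed under other settings, 777 of those without 1 library and 654 of the others kept their direction and side of the threshold, 56 and 64 lost a call, 7 and 17 gained one, and 1 reversed. edgeR, DESeq2, TMM scaling and both other pseudocounts left every count of AP-1 factors within 1.5 times of the count reported. With log2 RBM47 in place of dose, 0 factors had a slope in WT6 and 0 in WT10, and 0 slopes differed in either contrast between clones. Without all libraries at 25 ng/ml the counts were 0 in WT10, 0 for WT10 against MUT3 and 0 for WT6 against WT10. Of all 12588 genes, 17, 0 and 2 were called there. Without WT6 at 5 and 25 ng/ml, added after the data were seen, the counts were 1 in WT6 and 0 for WT6 against WT10. Of all 12597 genes, 177 and 4 were called there. WT10 against MUT3 gave 2 with no filter, 2 with no weights and 2 with the rank of the dose; linear dose gave 1 for WT6 against WT10 and 2 for the level in WT10 against MUT3; length and GC correction gave 6 for WT6 against WT10 and turned the FOSL1 difference there to -0.11. Of all genes, no filter, no weights and the rank of the dose called 591, 656 and 260 for WT10 against MUT3. Linear dose called 222 and 4381 in its 2 comparisons, and the length and GC correction called 1847. Leaving out 1 library gave 3 to 7 in WT6, 0 to 5 in WT10, 0 to 5 for WT10 against MUT3, 0 to 5 for WT6 against WT10 and 2 to 5 for the level in WT10 against MUT3. Of all genes, these fits called 4619 to 7888, 6 to 4142, 0 to 2260, 59 to 3709 and 2107 to 5157, in the same order. Except where a value above names the library or trend, the cause was not tested. With 56 reads or more on each gene, counting error was set by depth and the error between cultures is unknown.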
